A study of Homo sapiens with 4 samples.

Results

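The genes described here drive or carry out the G2 phase and mitosis. They are a list of 47 genes named for their function: the CDK1 switch into mitosis, the mitotic kinases, the spindle checkpoint, the centromere and kinetochore, the spindle, the anaphase machinery, cytokinesis, chromosome structure, and a pair of transcription factors. Of the 47, 46 had a probe set annotated to that gene alone, out of 18417 genes measured in this way. CENPA was the exception, because its probe set is annotated to SLC35F6 as well, and it has no value here. All 46 measured members passed the filter on low intensity, a mean log2 value of 6.16, which 15946 of the 18417 genes passed.

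The cells were MDA-MB231 and Hs578T, both long-established human lines, and their labels give basal-like breast cancer as the cell type. There were 4 groups with 1 Affymetrix array each, which were MDA-MB231 cells expressing FBP1, MDA-MB231 control cells, Hs578T cells expressing FBP1 and Hs578T control cells. FBP1 encodes fructose-1,6-bisphosphatase, a gluconeogenic enzyme. All cells grew in DMEM/F12 with serum and were collected in log phase. FBP1 cells were selected as stable clones, and the labels do not say how many clones an array stands for or what the control cells carried. A difference within a line has no replicate, and the number of arrays limits the precision of all values.

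Median intensity over all probe sets was 7.83 to 7.86 on the 4 arrays (log2 scale, as are all intensities and changes here), and across 33297 probe sets Pearson's r between FBP1 and control was 0.996 for MDA-MB231 and 0.994 for Hs578T. FBP1 had an intensity of 13.07 with FBP1 against 9.83 in the control of MDA-MB231, and 13.35 with FBP1 against 6.35 in the control of Hs578T, higher on the array labelled FBP1 in both lines. The mesenchymal gene VIM was bright on all arrays (13.71 to 13.72), and the basal keratin genes KRT5 and KRT14 had 6.80 to 6.93 and 8.45 to 9.62. Of the other genes in that marker list, CD44 had 13.68 to 13.88, AXL 12.31 to 12.97 and ZEB1 10.95 to 11.14. SPARC differed between the lines, with 11.60 and 11.84 in MDA-MB231 (FBP1 and control), against 14.03 and 14.23 in Hs578T. All 7 luminal genes passed the filter, among them ESR1 (6.64 to 6.80) and KRT18 (12.33 to 12.71). KRT8 had 13.02 and 13.10 in MDA-MB231 (FBP1 and control), against 9.80 and 9.58 in Hs578T, and EPCAM 9.43 and 9.47, against 6.26 and 6.55. Of the leukocyte genes, CD14 (7.41 to 8.30) and ITGAM (6.69 to 6.91) passed the filter, and PTPRC (4.52 to 4.96) and CD3E (5.69 to 6.12) lay below it on every array. Of the 5 endothelial genes, 4 passed (PECAM1, CDH5, KDR and VWF). PECAM1 had 8.48 and 8.51 in MDA-MB231 (FBP1 and control), against 6.97 and 6.81 in Hs578T.

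As background, cells enter mitosis when B-type cyclins with CDK1 are switched on by CDC25 phosphatases. Transcripts of most of these genes are low in G1 and climb towards G2 and mitosis. The MuvB complex holds them down in resting cells, and in cycling cells MuvB with B-MYB, the product of MYBL2, and then FOXM1 switches them on. MuvB binds a short promoter element called CHR through its subunit LIN54, and the factor NF-Y binds CCAAT boxes nearby. In breast tumours these transcripts are widely used as a measure of proliferation.

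Letters of these elements were looked for in promoter windows from RefSeq (GRCh38.p14, 250 bases before to 50 after the annotated start), a property that the choice of the genes did not use. The table held 50 windows for 40 of the 47 listed genes. AURKA, BIRC5, FOXM1, RACGAP1, TPX2, TTK and UBE2C were not matched. The CHR letters TTTGAA or TTCGAA, on either strand, stood in 34 of the 50 windows (68.0%), against 12.3% of 17855 windows of genes that passed the filter. CCAAT, on either strand, stood in 38 windows (76.0%), against 33.9%. Both stood together in 29 windows (58.0%), against 4.84%, and 22 windows (44.0%) held 2 or more CCAAT, against 11.4%. The E2F letters TTTCCCGC, TTTCGCGC, TTTGCCGC or TTTGGCGC, on either strand, stood in 4 windows (8.0%), against 4.42%. The CHR letters lay at a median position of −28.5 from the start in member windows, against −131 in windows of genes that passed the filter, and the CCAAT letters at −85, against −96. Such a match describes letters and is not a binding site.

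The windows printed here are those of the 3 members with the lowest change in MDA-MB231 and the 3 with the highest change in Hs578T among genes with a window, to set the promoters beside the widest values below. CHR and CCAAT letters are in capitals, and each is read 5′ to 3′ on the strand of its gene. KIF14 lies at chr1:200620702-200621001 (minus strand), CENPE at chr4:103198294-103198593 (minus strand), ESPL1 at chr12:53268049-53268348 (plus strand), MYBL2 at chr20:43666864-43667163 (plus strand), NUF2 at chr1:163321704-163322003 (plus strand) and PTTG1 at chr5:160421605-160421904 (plus strand).
KIF14: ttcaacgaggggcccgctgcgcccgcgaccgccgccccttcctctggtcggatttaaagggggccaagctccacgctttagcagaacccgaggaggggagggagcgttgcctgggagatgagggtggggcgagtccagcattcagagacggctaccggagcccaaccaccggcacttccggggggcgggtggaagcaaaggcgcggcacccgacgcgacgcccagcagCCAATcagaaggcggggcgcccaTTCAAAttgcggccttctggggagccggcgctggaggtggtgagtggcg
CENPE: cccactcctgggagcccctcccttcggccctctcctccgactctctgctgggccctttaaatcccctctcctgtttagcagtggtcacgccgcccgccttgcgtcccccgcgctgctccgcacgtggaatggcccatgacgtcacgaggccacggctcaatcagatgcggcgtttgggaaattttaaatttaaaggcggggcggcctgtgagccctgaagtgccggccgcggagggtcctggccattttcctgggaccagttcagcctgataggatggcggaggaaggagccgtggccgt
ESPL1: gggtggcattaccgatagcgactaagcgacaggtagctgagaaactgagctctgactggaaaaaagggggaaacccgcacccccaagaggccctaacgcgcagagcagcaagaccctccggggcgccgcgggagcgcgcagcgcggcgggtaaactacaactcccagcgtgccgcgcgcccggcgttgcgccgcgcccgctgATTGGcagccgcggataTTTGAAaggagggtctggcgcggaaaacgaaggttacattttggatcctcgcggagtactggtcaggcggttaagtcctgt
MYBL2: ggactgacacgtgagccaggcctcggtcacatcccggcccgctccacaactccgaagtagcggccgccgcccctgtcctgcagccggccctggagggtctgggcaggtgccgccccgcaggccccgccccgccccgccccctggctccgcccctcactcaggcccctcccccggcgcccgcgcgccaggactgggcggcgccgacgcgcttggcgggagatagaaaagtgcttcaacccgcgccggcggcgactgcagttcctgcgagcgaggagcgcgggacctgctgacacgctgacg
NUF2: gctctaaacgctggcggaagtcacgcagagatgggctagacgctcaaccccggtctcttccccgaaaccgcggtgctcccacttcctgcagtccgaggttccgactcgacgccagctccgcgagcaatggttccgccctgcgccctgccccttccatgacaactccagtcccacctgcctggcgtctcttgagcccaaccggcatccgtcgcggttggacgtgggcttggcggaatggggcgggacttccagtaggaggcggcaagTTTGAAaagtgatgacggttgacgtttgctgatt
PTTG1: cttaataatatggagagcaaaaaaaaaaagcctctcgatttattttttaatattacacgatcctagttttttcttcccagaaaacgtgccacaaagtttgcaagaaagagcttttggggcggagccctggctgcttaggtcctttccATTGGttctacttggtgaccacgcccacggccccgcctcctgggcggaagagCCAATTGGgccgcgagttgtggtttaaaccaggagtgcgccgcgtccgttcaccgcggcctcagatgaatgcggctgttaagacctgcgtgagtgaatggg
KIF14 has a CCAAT at −22 and CHR letters, read on the other strand, at 2. ESPL1 has a reversed CCAAT at −48 and CHR letters at −31. NUF2 has CHR letters at 17 and no CCAAT, and PTTG1 has 3 CCAAT matches, a pair of them overlapping, and no CHR letters. The windows of CENPE and MYBL2 hold none of these letters. Among measured members with a window, the 30 with CHR letters had a median change of −0.17 in MDA-MB231 and 0.15 in Hs578T. The 9 without had −0.14 and 0.13.

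The main comparison asked how these genes differed between FBP1-expressing and control cells of each line. In MDA-MB231 nearly all stood slightly lower with FBP1, and in Hs578T most stood slightly higher. In MDA-MB231, 43 of the 46 members were below control (93.5%, against 51.8% of all 15946 genes), with a median change of −0.15, against −0.0053 over all genes. In Hs578T, 39 were above control (84.8%, against 54.9%), with a median change of 0.14, against 0.021 over all genes. With 1 array a group these differences have no test. In bulk RNA, fewer cells in G2 and mitosis and less of these transcripts per cell cannot be told apart.

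Opposite signs, with MDA-MB231 below control and Hs578T above it, were seen in 36 members (78.3%, against 27.7% of all genes). CDC25C, CKS2, AURKA, BUB1, TTK, CENPE and SPC25 were lower in both lines (7 members, against 24% of all genes). CCNB1, BIRC5 and MAD2L1 were higher in both (3 members, against 27.2%), and the reverse pattern, up in MDA-MB231 and down in Hs578T, had 0 members (against 21%). Members above control in MDA-MB231 thus numbered 3 (against 48.2% of all genes), and those below control in Hs578T 7 (against 45.1%).

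The differences were small. Changes ran from −0.32 (KIF14) to 0.012 (BIRC5) in MDA-MB231 and from −0.17 (SPC25) to 0.45 (MYBL2) in Hs578T. At 1.5-fold, 0 members differed in either line, against 0.627% of all genes in MDA-MB231 and 3.08% in Hs578T. Past a log2 change of 0.32, KIF14 was lower in MDA-MB231 (1 of 46, 2.17%, against 2.38%) and 0 members were higher (against 2.58%), and MYBL2, NUF2, PTTG1 and PRC1 were higher in Hs578T (4 of 46, 8.70%, against 6.34%) and 0 lower (against 6.55%). The shares of KIF14 and of these 4 genes are near those of all genes. KIF14 lay at the cut itself, and 0 members passed it in MDA-MB231 after quantile normalization or median centring. The SD of the changes over members was 0.084 in MDA-MB231 and 0.14 in Hs578T, against 0.16 and 0.26 over all genes.

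The members are among the brighter genes, so the same counts were taken over the 5986 genes with a mean intensity at least that of the dimmest member, a setting chosen after the data were seen. Of these, 56.7% were below control in MDA-MB231 (median −0.019) and 50.7% were above control in Hs578T (median 0.0030). Those with both of these signs made up 28.5%.

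**Figure D1:**
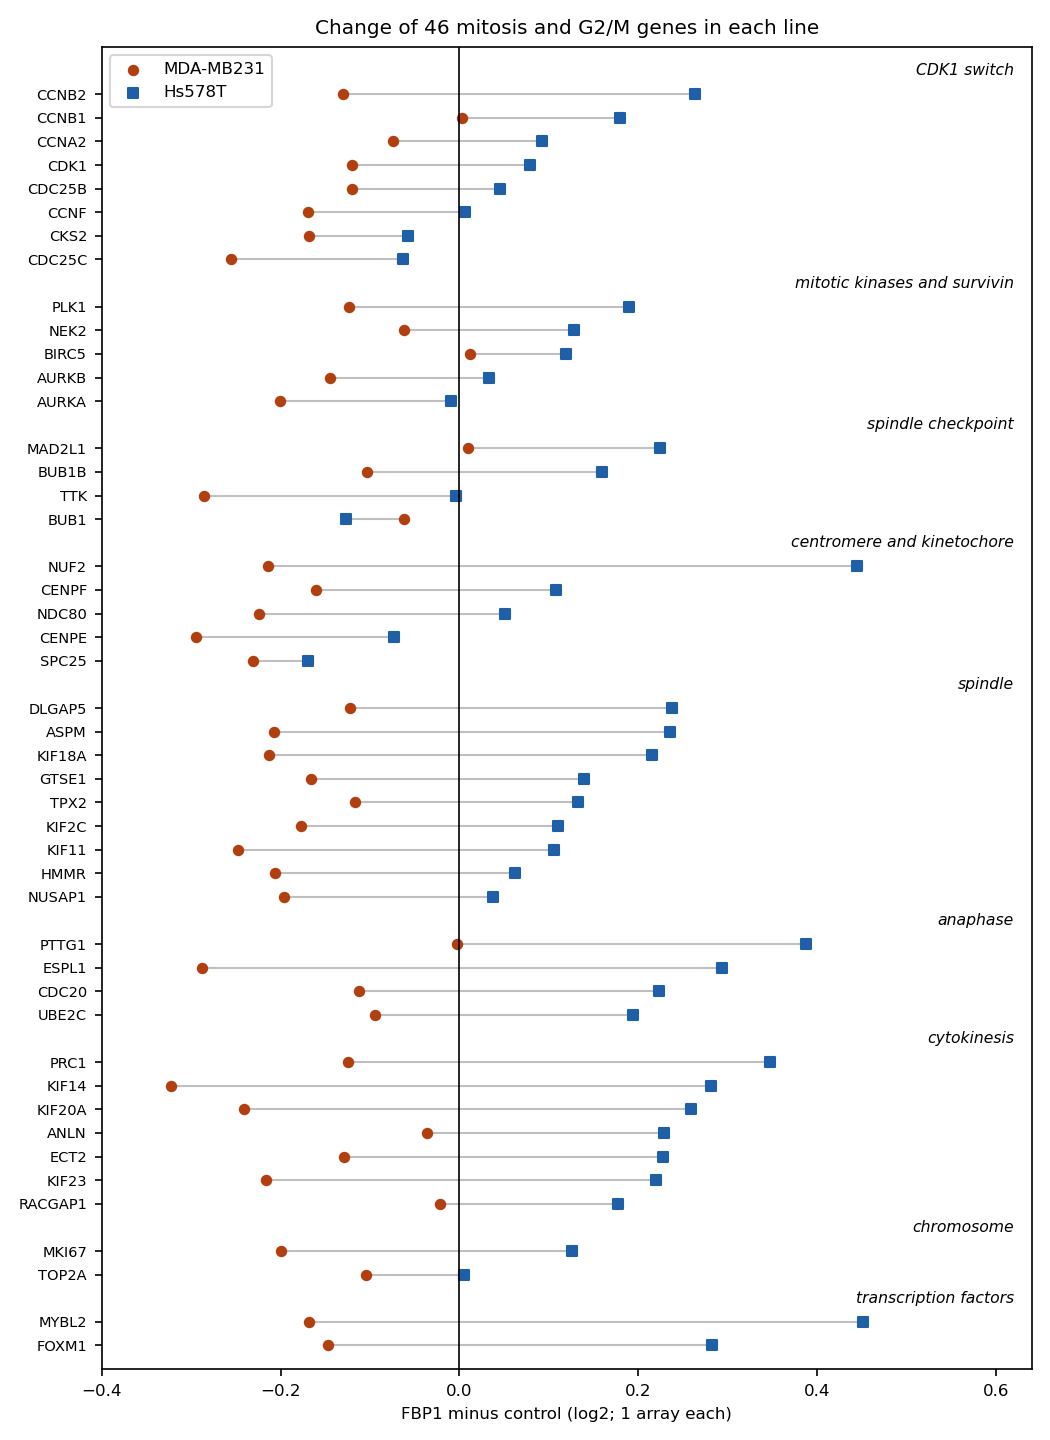
Change of each of the 46 measured genes, FBP1 minus control (log2, horizontal axis), by role. Circles are MDA-MB231 and squares Hs578T, each the difference of 1 array from 1 array, with a line joining the values of a gene; 43 circles lie below 0 and 39 squares above it.

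The list called the CDK1 switch held CDK1, the cyclin genes CCNA2, CCNB1, CCNB2 and CCNF, the CDC25 phosphatases that activate CDK1 and the CDK-binding protein CKS2. CCNF was counted there as a cyclin gene, not as a partner of CDK1. Of the 8 members of this list, 7 were lower in MDA-MB231 (median −0.13) and 6 higher in Hs578T (median 0.062). CCNB2, a B-type cyclin, had 12.47 with FBP1 against 12.60 in the control of MDA-MB231, and 12.33 with FBP1 against 12.07 in the control of Hs578T. CDK1, the kinase that drives mitosis, had 11.89 with FBP1 against 12.01 in MDA-MB231 and 11.53 with FBP1 against 11.45 in Hs578T. CCNB2 was 1.20-fold higher with FBP1 in Hs578T, the widest change of this group in that line, and CDK1 1.06-fold higher. CDC25C, a phosphatase that removes inhibitory phosphates from CDK1, had 9.36 with FBP1 against 9.61 in MDA-MB231 and 10.03 with FBP1 against 10.09 in Hs578T. CKS2 had 12.94 with FBP1 against 13.11 in MDA-MB231 and 12.82 with FBP1 against 12.88 in Hs578T. CDC25C and CKS2 were the members of this group lower with FBP1 in both lines. CCNB1, the main mitotic cyclin, differed by 0.0031 in MDA-MB231 and 0.18 in Hs578T, and CCNA2, CCNF and CDC25B by −0.17 to −0.074 in MDA-MB231 and 0.0061 to 0.092 in Hs578T.

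The mitotic kinases and survivin had medians of −0.12 in MDA-MB231 and 0.12 in Hs578T. PLK1, a kinase of spindle assembly and mitotic exit, had 13.03 with FBP1 against 13.15 in the control of MDA-MB231, and 13.11 with FBP1 against 12.92 in the control of Hs578T. AURKA, the Aurora kinase of centrosomes and spindle poles, had 12.49 with FBP1 against 12.69 in MDA-MB231 and 12.28 with FBP1 against 12.29 in Hs578T. AURKA was 1.15-fold lower with FBP1 in MDA-MB231 and differed by −0.0096 in Hs578T. AURKB, the Aurora kinase that corrects faulty kinetochore attachments, had 12.10 with FBP1 against 12.24 in MDA-MB231 and 11.70 with FBP1 against 11.67 in Hs578T. NEK2, a kinase of centrosome separation, had 11.16 with FBP1 against 11.23 in MDA-MB231 and 10.99 with FBP1 against 10.87 in Hs578T. All of these kinases were lower with FBP1 in MDA-MB231, and AURKA alone among them was lower in Hs578T. BIRC5, which encodes survivin, the partner of AURKB at centromeres, had 11.04 with FBP1 against 11.03 in MDA-MB231 and 11.02 with FBP1 against 10.90 in Hs578T. A dimmer probe set of BIRC5 differed by −0.27 in MDA-MB231 and −0.16 in Hs578T, so its probe sets disagree, and their mean was lower with FBP1 in both lines (−0.13 and −0.018).

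The spindle checkpoint holds back anaphase until kinetochores are attached, and of its 4 members 3 were below control in MDA-MB231 and 2 above it in Hs578T. TTK, the MPS1 kinase that starts checkpoint signalling, had 11.06 with FBP1 against 11.34 in the control of MDA-MB231, and 11.12 with FBP1 against 11.12 in the control of Hs578T. BUB1B, which encodes BUBR1, had 11.98 with FBP1 against 12.08 in MDA-MB231 and 11.81 with FBP1 against 11.65 in Hs578T. TTK was 1.22-fold lower in MDA-MB231, at percentile 3.41 of all genes, and differed by −0.0043 in Hs578T. MAD2L1, whose product inhibits CDC20, had 11.46 with FBP1 against 11.45 in MDA-MB231 and 11.31 with FBP1 against 11.09 in Hs578T. BUB1, a checkpoint kinase, had 12.51 with FBP1 against 12.57 in MDA-MB231 and 11.75 with FBP1 against 11.88 in Hs578T. BUB1 was the member whose change was lower in Hs578T (−0.13) than in MDA-MB231 (−0.062).

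All 5 measured kinetochore genes were lower in MDA-MB231 (median −0.22), and 3 were higher in Hs578T (median 0.051). NUF2, a subunit of the NDC80 complex that grips microtubules, had 11.37 with FBP1 against 11.58 in the control of MDA-MB231, and 11.51 with FBP1 against 11.07 in the control of Hs578T. SPC25, another subunit, had 10.49 with FBP1 against 10.72 in MDA-MB231 and 9.79 with FBP1 against 9.96 in Hs578T. NUF2 was 1.36-fold higher and SPC25 1.12-fold lower with FBP1 in Hs578T. NDC80, which gives the complex its name, had 11.19 with FBP1 against 11.42 in MDA-MB231 and 11.54 with FBP1 against 11.49 in Hs578T. CENPE, a motor that moves chromosomes to the metaphase plate, had 11.04 with FBP1 against 11.33 in MDA-MB231 and 11.13 with FBP1 against 11.20 in Hs578T. CENPE was 1.23-fold lower in MDA-MB231, at percentile 3.09 of all genes. CENPF, a large kinetochore protein, had 12.17 with FBP1 against 12.33 in MDA-MB231 and 11.90 with FBP1 against 11.79 in Hs578T.

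All 9 spindle genes were below control in MDA-MB231 (median −0.20) and above it in Hs578T (median 0.13). ASPM, a protein of spindle poles, had 11.16 with FBP1 against 11.36 in the control of MDA-MB231, and 11.19 with FBP1 against 10.96 in the control of Hs578T. KIF18A, a kinesin that dampens chromosome movement, had 11.31 with FBP1 against 11.52 in MDA-MB231 and 11.38 with FBP1 against 11.16 in Hs578T. ASPM and KIF18A were higher in MDA-MB231 than in Hs578T between control arrays and slightly lower between FBP1 arrays. DLGAP5, which stabilises kinetochore fibres, had 12.55 with FBP1 against 12.67 in MDA-MB231 and 12.07 with FBP1 against 11.84 in Hs578T. KIF11, the kinesin that pushes spindle poles apart, had 11.75 with FBP1 against 12.00 in MDA-MB231 and 11.50 with FBP1 against 11.40 in Hs578T. KIF11 had the lowest change of the group in MDA-MB231 (1.19-fold lower) and DLGAP5 the highest in Hs578T (1.18-fold higher). KIF2C, TPX2, NUSAP1, HMMR and GTSE1 differed by −0.21 to −0.12 in MDA-MB231 and 0.037 to 0.14 in Hs578T.

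The 4 anaphase genes were below control in MDA-MB231 (median −0.10) and above it in Hs578T (median 0.26). ESPL1, which encodes separase, the protease that cuts cohesin, had 10.01 with FBP1 against 10.30 in the control of MDA-MB231, and 9.44 with FBP1 against 9.14 in the control of Hs578T. PTTG1, which encodes securin, the inhibitor of separase, had 11.08 with FBP1 against 11.08 in MDA-MB231 and 11.78 with FBP1 against 11.39 in Hs578T. With FBP1, ESPL1 was 1.22-fold below control in MDA-MB231 and 1.23-fold above it in Hs578T, whereas PTTG1 differed by −0.0022 in MDA-MB231 and was 1.31-fold higher in Hs578T. CDC20, an activator of the anaphase-promoting complex, had 13.30 with FBP1 against 13.41 in MDA-MB231 and 13.23 with FBP1 against 13.01 in Hs578T. UBE2C, a ubiquitin-conjugating enzyme of that complex, had 11.27 with FBP1 against 11.36 in MDA-MB231 and 10.62 with FBP1 against 10.42 in Hs578T. CDC20 and UBE2C stood below control in MDA-MB231 and above it in Hs578T.

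The 7 cytokinesis genes had the same directions, with medians of −0.13 in MDA-MB231 and 0.23 in Hs578T. KIF14, a kinesin that works with citron kinase at the midbody, had 10.62 with FBP1 against 10.94 in the control of MDA-MB231, and 10.17 with FBP1 against 9.89 in the control of Hs578T. KIF20A, a kinesin of the central spindle, had 12.28 with FBP1 against 12.52 in MDA-MB231 and 13.02 with FBP1 against 12.76 in Hs578T. KIF14 had the lowest change of all members in MDA-MB231, at percentile 2.36 of all genes. PRC1, which bundles microtubules of the central spindle, had 12.47 with FBP1 against 12.59 in MDA-MB231 and 12.35 with FBP1 against 12.00 in Hs578T. KIF23, a subunit of centralspindlin, had 12.28 with FBP1 against 12.50 in MDA-MB231 and 12.16 with FBP1 against 11.94 in Hs578T. PRC1 was 1.27-fold higher with FBP1 in Hs578T, at percentile 94.7 of all genes. ANLN, ECT2 and RACGAP1, which act on the contractile ring and RhoA, differed by −0.13 to −0.021 in MDA-MB231 and 0.18 to 0.23 in Hs578T.

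Of the chromosome genes, MKI67, which encodes the proliferation marker Ki-67, had 12.19 with FBP1 against 12.39 in the control of MDA-MB231, and 11.59 with FBP1 against 11.46 in the control of Hs578T. TOP2A, the topoisomerase that untangles sister chromatids, had 12.77 with FBP1 against 12.87 in MDA-MB231 and 12.50 with FBP1 against 12.49 in Hs578T. MKI67 was 1.15-fold lower in MDA-MB231, and TOP2A differed by 0.0052 in Hs578T. Among the transcription factors, MYBL2 had 11.74 with FBP1 against 11.90 in MDA-MB231 and 11.87 with FBP1 against 11.42 in Hs578T. FOXM1 had 12.06 with FBP1 against 12.20 in MDA-MB231 and 11.96 with FBP1 against 11.68 in Hs578T. In Hs578T, MYBL2 was 1.37-fold higher with FBP1, at percentile 97.3 of all genes, and FOXM1 1.22-fold higher, at percentile 91.5.

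The change in MDA-MB231 was below that in Hs578T for 45 of 46 members (97.8%, against 54.7% of all genes), with a median difference of −0.27, and BUB1 was the exception (0.065). The widest differences were −0.66 for NUF2, −0.62 for MYBL2, −0.60 for KIF14 and −0.58 for ESPL1. This contrast of the lines has no test, since 4 arrays leave no error for it. Over the 46 members, which share arrays and are no replicates, Pearson's r between the MDA-MB231 and Hs578T changes was 0.16 and Spearman's rho 0.13.

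**Figure D2:**
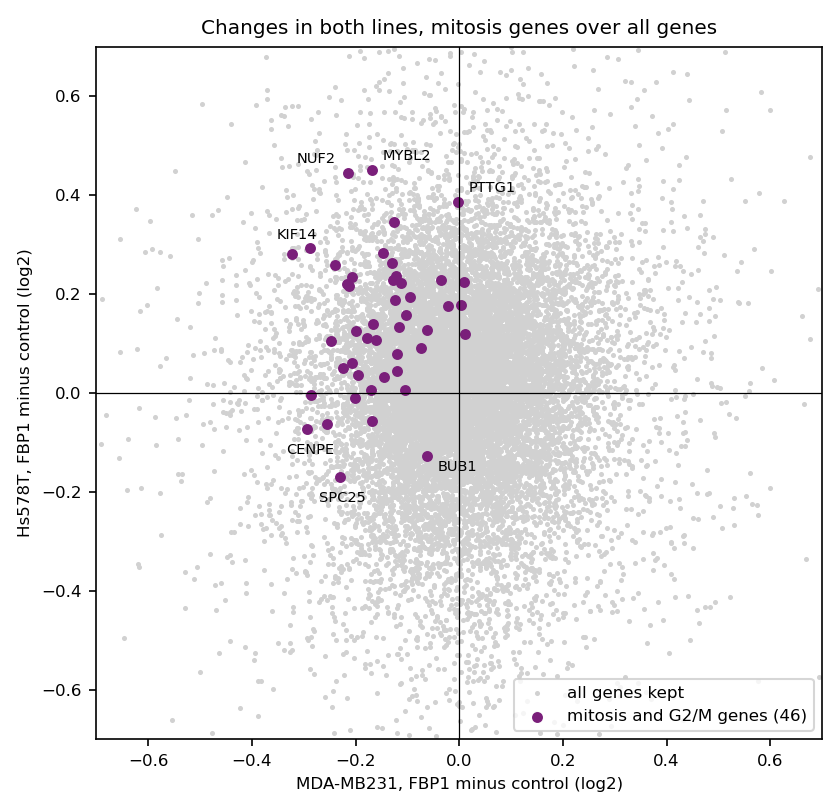
Change in MDA-MB231 (horizontal axis) against change in Hs578T (vertical axis), FBP1 minus control, log2. Grey points are all genes that passed the filter, of which 375 lie outside the drawn range, and purple points are the 46 mitosis and G2/M genes, 36 of them left of 0 and above 0.

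Both lines together give the sole replication of FBP1 expression, and limma was fitted with terms for construct and line. This fit called 0 of the 46 members at an adjusted p under 0.05 (against 0% of all genes) and 0 at an unadjusted p under 0.05 (against 5.14% of all genes). The fit averages the lines, so opposite changes cancel in its mean and widen its error. KIF14, for example, had a limma mean change of −0.0205 with an SE of 0.156. The counts of 0 therefore say little about members with opposite signs. The member with the smallest p was SPC25, lower with FBP1 in both lines (limma mean change −0.20, SE 0.098, limma adjusted p = 0.943). Mean changes of the members over both lines ran from −0.20 to 0.19, with standard errors of 0.067 to 0.16. FBP1 itself was not called (limma mean change 5.12, SE 0.77, adjusted p = 0.943), so the count of 0 does not show that the members were equal.

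The level of these genes in MDA-MB231 against Hs578T was the other comparison, with 2 arrays a line. The labels do not say that these come from separate cultures. With construct as a term, the fit's error for a gene is the gap between the lines' FBP1 changes (1 residual degree of freedom). limma moderates that error with the other genes (5.04 prior degrees of freedom). The p-values therefore do not measure the spread between cultures of a line. HMMR, a spindle and hyaluronan-binding protein, had 8.72 and 8.92 in MDA-MB231 (FBP1 and control), against 10.74 and 10.68 in Hs578T (FBP1 and control). It was 3.71-fold lower in MDA-MB231, the widest line difference of any member (−1.89, SE 0.11, limma adjusted p = 9.09e-05). Most called differences ran the other way. BUB1 was 1.65-fold higher in MDA-MB231 (0.72, SE 0.075, limma adjusted p = 0.000785), MKI67 1.70-fold (0.77, SE 0.10, limma adjusted p = 0.00204), UBE2C 1.73-fold (0.79, SE 0.11, limma adjusted p = 0.00222) and DLGAP5 1.57-fold (0.65, SE 0.10, limma adjusted p = 0.00393). For these 4 genes both MDA-MB231 arrays lay above both Hs578T arrays.

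In all, limma called 16 members higher in MDA-MB231 (34.8%, against 21.8% of all genes) and 5 lower (10.9%, against 19%). Also lower in MDA-MB231 were CDC25C (−0.58, limma adjusted p = 0.00725), PTTG1 (−0.50, adjusted p = 0.0169), KIF20A (−0.49, adjusted p = 0.0218) and CDC25B (−0.30, adjusted p = 0.0479). CDC25B, a phosphatase that starts CDK1 activation, had 10.97 and 11.09 in MDA-MB231 (FBP1 and control), against 11.35 and 11.30 in Hs578T. Also higher were ESPL1 (0.87, limma adjusted p = 0.00620), KIF14 (0.75, adjusted p = 0.0109), SPC25 (0.73, adjusted p = 0.00206) and AURKB (0.48, adjusted p = 0.00613). CDK1, KIF11, CENPF, NUSAP1, TOP2A, RACGAP1, AURKA and BUB1B were higher by 0.30 to 0.46. Both MDA-MB231 arrays were above both Hs578T arrays for 31 members (against 35.8% of all genes) and below them for 6 (against 37.2%). For the 25 members not called, an adjusted p over the threshold does not show equal levels.

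Most of these calls were lost when single arrays were left out in turn, which also changed the error that the fit used. Each of these was a limma fit on line alone, where the lone array is assumed to vary like the other line's. Its error thus comes from the line that keeps both arrays. The SD of the FBP1 changes over all genes was 0.16 in MDA-MB231 and 0.26 in Hs578T. What part this error had in the calls was not tested. Without the MDA-MB231 control array 4 members were called higher and 3 lower (15.2% in all, against 20.3% of all genes in the same fit). Without the MDA-MB231 FBP1 array these counts were 14 and 1 (32.6%, against 21.4%), without the Hs578T FBP1 array 29 and 5 (73.9%, against 44.0%), and without the Hs578T control array 15 and 5 (43.5%, against 41.5%). The number of calls thus moved over all genes as well as over the members. Without the MDA-MB231 control array the limma adjusted p was 0.0508 for SPC25, 0.0529 for ESPL1, 0.0623 for AURKB, 0.0788 for KIF14, 0.109 for CDC25B and 0.142 for PTTG1. Without the MDA-MB231 FBP1 array it was 0.0842 for CDC25C, 0.130 for KIF20A, 0.140 for PTTG1 and 0.236 for CDC25B. The median of MDA-MB231 minus Hs578T over the members was 0.24 on all arrays, 0.098 between FBP1 arrays and 0.39 between control arrays.

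**Figure D3:**
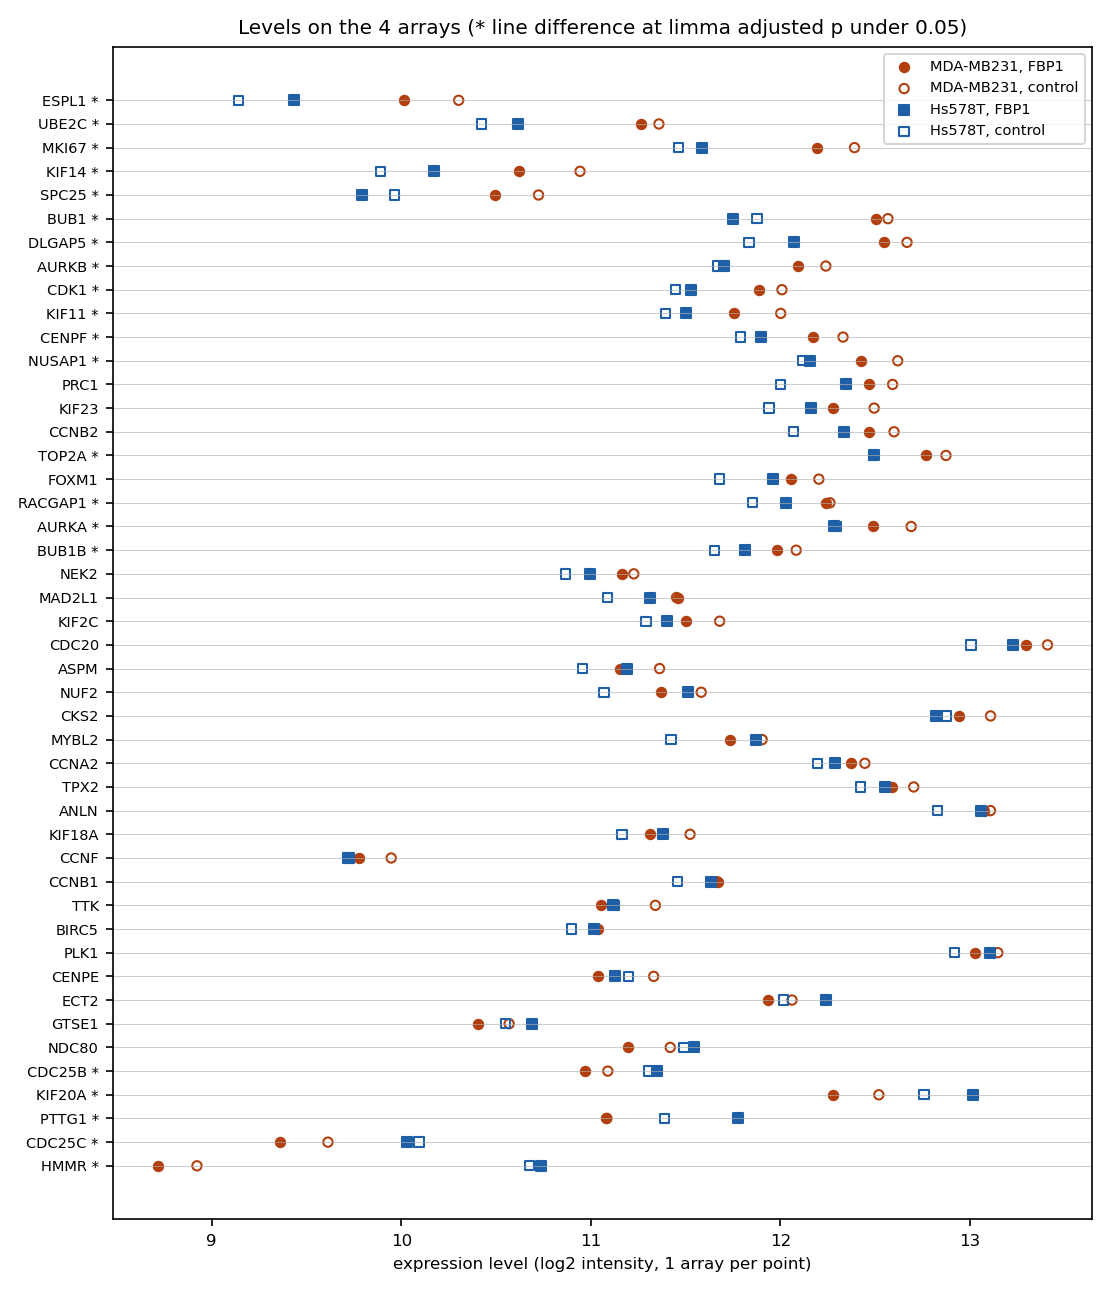
Log2 intensity (horizontal axis) of each member on the 4 arrays, ordered by MDA-MB231 minus Hs578T. Circles are MDA-MB231 and squares Hs578T, filled for FBP1 and open for control, and an asterisk marks a line difference at a limma adjusted p under 0.05; HMMR stands apart, at 8.72 and 8.92 in MDA-MB231, and intensities of different genes cannot be compared.

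Other genes of mitosis and its control were taken from 6 lists chosen by function, with earlier results of these data known. Of their 115 genes, 113 were measured above the filter. Of the 113, 91 were lower with FBP1 in MDA-MB231 (80.5%, against 51.8% of all genes, median −0.11). In Hs578T 78 were higher (69.0%, against 54.9% of all genes, median 0.067), and the limma fit over both lines called 0. Among other mitotic kinesins and spindle genes, 19 of 21 were below control in MDA-MB231 and 18 above it in Hs578T. PIMREG differed by −0.19 in MDA-MB231 and 0.32 in Hs578T, TACC3, a spindle protein, by −0.19 and 0.24, TROAP by −0.13 and 0.28 and KNSTRN, a kinetochore and spindle adaptor, by −0.15 and 0.24. Among other kinetochore and checkpoint genes, 28 of 33 were below control in MDA-MB231 and 23 above it in Hs578T. SPC24, the partner of SPC25, differed by −0.027 in MDA-MB231 and 0.55 in Hs578T, the centromere gene CENPL by −0.38 and 0.087, SGO1, a protector of centromeric cohesin, by −0.29 and 0.10 and ZWILCH, a checkpoint gene, by −0.18 and 0.21. Of 16 condensin and cohesin genes, which fold and hold chromatids, 13 were below control in MDA-MB231 and 13 above it in Hs578T. Sororin (CDCA5) differed by −0.15 in MDA-MB231 and 0.26 in Hs578T. The condensin genes NCAPG2, SMC2 and NCAPD2 differed by 0.12 and 0.28, −0.18 and 0.22, and −0.16 and 0.23.

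For the anaphase-promoting complex, 11 of 17 genes were below control in MDA-MB231 (64.7%, against 51.8% of all genes, median −0.020). In Hs578T 9 were above control (52.9%, against 54.9% of all genes, median 0.0047), a share near that of all genes. UBE2S, which extends its ubiquitin chains, differed by −0.18 in MDA-MB231 and 0.21 in Hs578T, its inhibitor FBXO5 by −0.27 and 0.058, and the subunit genes ANAPC10 and CDC26 by −0.18 and 0.088, and −0.14 and −0.13. The 15 MuvB, RB family and partner genes had medians of −0.074 in MDA-MB231 and −0.040 in Hs578T. The pocket protein gene RBL2 differed by 0.34 in MDA-MB231 and −0.072 in Hs578T, LIN9 of MuvB by −0.18 and 0.19, NFYC of NF-Y by −0.17 and 0.19, TFDP2 by 0.066 and −0.28 and LIN54 by −0.0099 and 0.034.

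The 11 measured brakes on the CDK1 switch had medians of −0.065 in MDA-MB231 and 0.091 in Hs578T. CDKN1A, which encodes the CDK inhibitor p21, had 9.83 with FBP1 against 10.12 in the control of MDA-MB231, and 9.43 with FBP1 against 9.99 in the control of Hs578T. It was lower with FBP1 in both lines, by 1.22-fold and 1.47-fold (limma mean change −0.42, SE 0.11, limma adjusted p = 0.943). SFN, which encodes 14-3-3 sigma, differed by −0.34 in MDA-MB231 and 0.56 in Hs578T. The checkpoint kinase gene CHEK2 differed by −0.073 and 0.49, and PKMYT1 and WEE1, kinases that inhibit CDK1, by −0.22 and 0.28, and −0.036 and 0.32. CHEK2 was dim, with intensities of 7.93 to 8.51, lower than those of any member.

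DNA replication genes, which act before G2, lay in the same directions. Of 30, 25 were below control in MDA-MB231 (83.3%, against 51.8% of all genes, median −0.11). In Hs578T 28 were above control (93.3%, against 54.9% of all genes, median 0.31). In Hs578T 13 of the 30 were higher by over 0.32 (43.3%, against 6.34% of all genes), and 4 of the 46 mitosis genes were. The polymerase genes POLA1 and POLE2 differed by −0.29 in MDA-MB231 and 0.45 in Hs578T, and −0.017 in MDA-MB231 and 0.68 in Hs578T. The licensing gene CDC6 differed by −0.38 and 0.28, and the helicase subunit gene GINS2 by −0.15 and 0.49. The 12 G1 cyclin, kinase and E2F genes had medians of −0.075 and 0.017. CCND2 differed by 0.0078 in MDA-MB231 and −0.76 in Hs578T, E2F2 by −0.14 and 0.25, CDK6 by −0.25 and 0.11 and CCNE1 by 0.14 and −0.19. All lists rest on the same 4 arrays, and differences between lists were not tested.

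**Figure D4:**
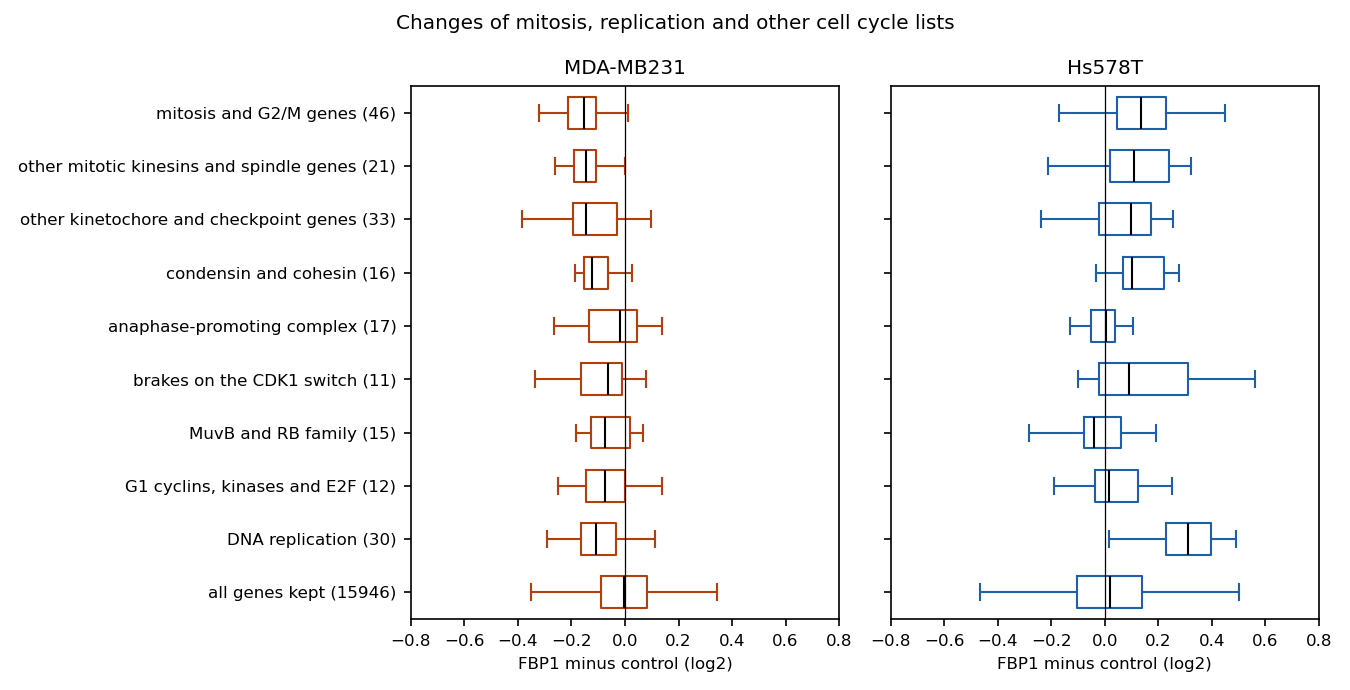
Change with FBP1 (log2) of the mitosis and G2/M genes, of other cell cycle lists and of all genes that passed the filter, in MDA-MB231 (left) and Hs578T (right). Boxes span the quartiles with the median as a line, whiskers reach the last value within 1.5 box lengths and values beyond are not drawn; the medians of the mitosis genes are −0.15 and 0.14, and that of DNA replication in Hs578T is 0.31.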

How the data were processed

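Total RNA of the 4 groups was hybridised to 1 Affymetrix array each, and the authors deposited log2 values for 33297 probe sets, made with Affymetrix Expression Console 1.1.2800.28061 per the submitters' processing notes. The background correction and normalization used are not given in the sources used here. From these values, probe sets annotated to 1 gene (19460, with 1754 annotated to several and 12083 to none) were kept, the one with the highest mean stood for each gene, and genes under the 25th percentile of probe set means were left out. Within a line a change is FBP1 minus control, with no test. Over both lines, limma 3.58.1 in R 4.3.3 was fitted to all 15946 genes with line and construct as terms and an intensity trend (1 residual degree of freedom), with Benjamini-Hochberg adjustment. The code for the line comparison was first run on simulated data, with a pass mark for large differences alone. The FBP1 term was not simulated. Pairing each FBP1 array with its control comes from the shared cell line.

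The members and lists were chosen with earlier results of these data known. Named with all values are the 4 members of each role with the largest summed absolute change (all in roles of up to 5), any past a log2 change of 0.32, and up to 8 each way with the largest called line difference, and from other lists up to 4 genes, plus CDKN1A, WEE1 and LIN54. Alternatives changed the normalization, probe set rule, filter, variance prior, block and arrays used.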

Additional observations from a re-analysis of the deposited data

Results flagged for a closer look

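The median change of the members with FBP1 was −0.15 in MDA-MB231 and 0.14 in Hs578T, in opposite directions. No test of this difference could be made, and it was not tested, because there is 1 array in each group.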

How the results depend on the processing

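Under quantile normalization, median centring, the mean of probe sets, no filter, a filter at the 50th percentile and a brightness filter chosen after the data were seen, 41 to 44 members were lower in MDA-MB231 and 37 to 41 higher in Hs578T, and the median difference between the lines ran from −0.27 to −0.25. Of these settings, quantile normalization and median centring alone can move the changes of all members. The mean of probe sets can move that of BIRC5 alone. The filters cannot move any, since all 46 members passed each of them. Members lower in MDA-MB231 by over 0.32 (log2) numbered 0 under quantile normalization and 0 under median centring, and the cause was not tested. The FBP1 fit over both lines called 0 members under these settings, without the intensity trend and with no replicate block (smallest adjusted p among members 1). Leaving out each array in turn, the members called between lines numbered 7 to 34, with 4 to 29 higher and 1 to 5 lower in MDA-MB231, and the share of all genes called in the same fits was 20.3% to 44.0%. The line median was 0.098 on FBP1 arrays alone and 0.39 on control arrays alone. BUB1B lost its line call under quantile normalization (limma adjusted p = 0.0622), median centring (0.0719), no filter (0.0515) and no trend (0.0805), CDC25B with no filter (0.051) and no trend (0.0659), and AURKA (0.0661) and RACGAP1 (0.0634) with no trend. With 1 array a group, differences of this size have no error within a line.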
